A study of Papio anubis and Macaca fascicularis and Castor canadensis with 48 samples.

Results

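The 10 genes described here sense DNA damage or repair it. They are Trp53 (ENSMUSG00000059552), Atm (ENSMUSG00000034218), Brca1 (ENSMUSG00000017146), Brca2 (ENSMUSG00000041147), Xrcc5 (ENSMUSG00000026187), Xrcc6 (ENSMUSG00000022471), Prkdc (ENSMUSG00000022672), Ercc1 (ENSMUSG00000003549), Sirt6 (ENSMUSG00000034748) and Parp1 (ENSMUSG00000026496). They were taken as a named list of mouse Ensembl gene IDs, and the rule used no measured value. Earlier results of these data were known when the list was chosen. All 10 were found among the 16816 rows of the deposited count table.

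RNA sequencing covered 48 libraries of 8 mammal species, all from male, wild-type young adults, in a study whose title concerns mammalian longevity. Beaver (Castor canadensis) gave 2 brain and 2 liver libraries, baboon (Papio anubis) gave 6 brain, 6 kidney and 6 liver libraries, and long-tailed macaque (Macaca fascicularis) gave 6 cerebellum, 5 kidney and 6 liver libraries. White-footed mouse (Peromyscus leucopus) gave 1 brain and 1 liver, American black bear (Ursus americanus) 1 kidney and 1 liver, tube-nosed bat (Murina leucogaster) 1 liver, and chipmunk (Tamias sibiricus) and sugar glider (Petaurus breviceps) 2 livers each. The 39 libraries of baboon, beaver and macaque came from a primate research center and the other 9 from an earlier collection, so species and collection cannot be told apart for those 9. The labels do not say whether same-group libraries come from separate animals, so p-values measure the spread between these libraries.

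Cells answer DNA breaks with a signalling arm and several repair arms. Atm encodes the kinase that double-strand breaks activate, and Trp53 encodes a transcription factor it signals to, which can halt the cell cycle or start cell death. Breaks are repaired by homologous recombination, which needs BRCA1 and BRCA2 and works in dividing cells, or by non-homologous end joining, which also works in resting cells such as neurons and hepatocytes. In end joining a ring of Ku80 (Xrcc5) and Ku70 (Xrcc6) binds the break and recruits the kinase DNA-PKcs (Prkdc). Ercc1 encodes the partner of the XPF nuclease in nucleotide excision and crosslink repair, Sirt6 a chromatin deacetylase that promotes break repair, and Parp1 the enzyme that marks strand breaks with poly(ADP-ribose). In humans, loss of ATM causes ataxia-telangiectasia, in which the cerebellum degenerates.

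Levels were first read as CPM, in which the count of a gene is taken relative to the total of its library. Library totals ran between 6326129 and 26801829 counts. Transcripts of different length give different numbers of reads, so a level is compared here only with the same gene's level in another group. Between species, such a comparison may also include unequal assignment of reads to mouse gene IDs. Across the 15 groups, 9 of the 10 genes were counted in every library, and 8 genes reached 1 CPM in all 48. Brca2 was the exception at the low end: it reached 1 CPM in 10 libraries and had no count in 3.

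**Figure D1:**
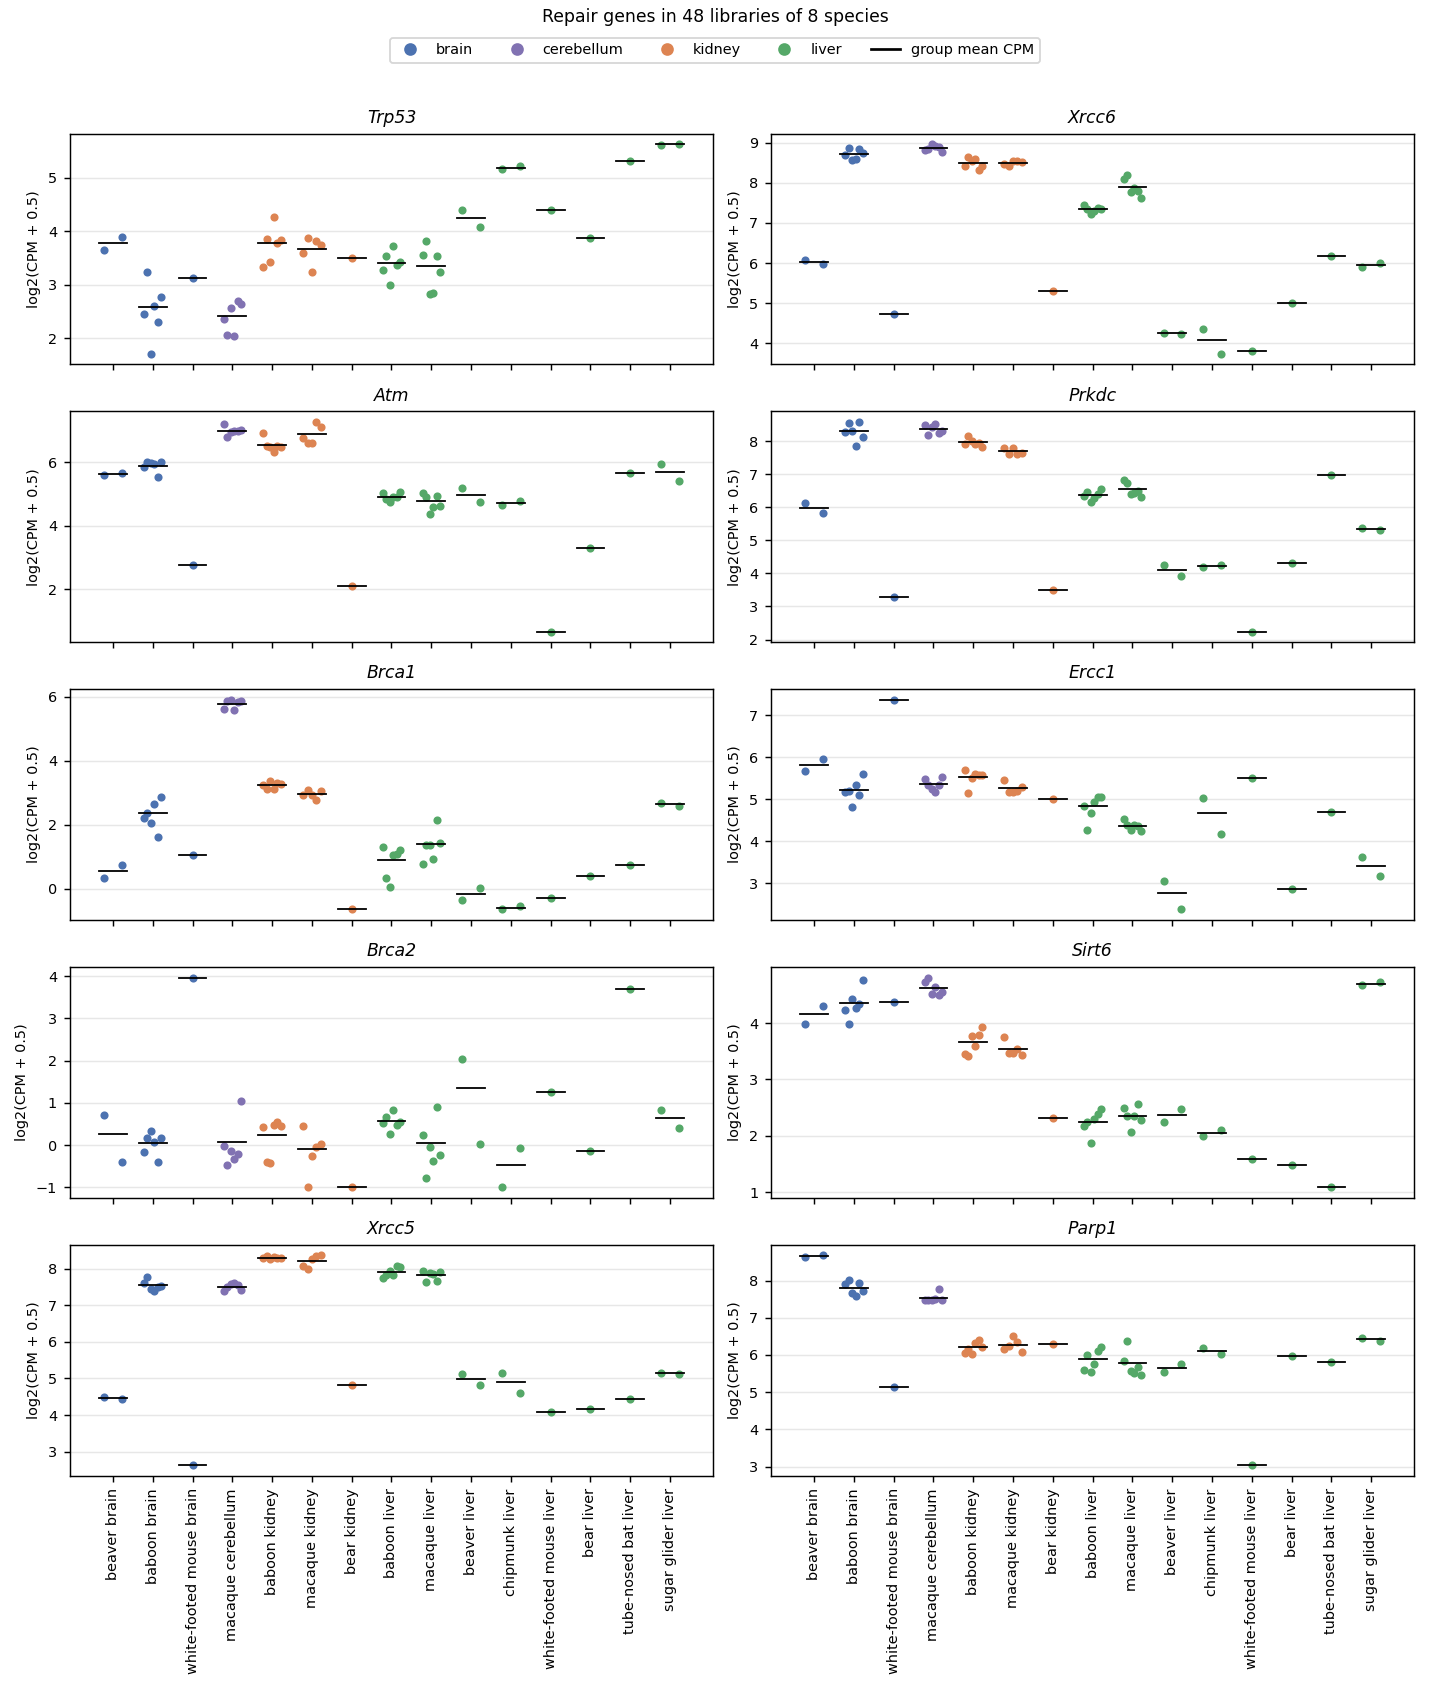
Each panel plots 1 gene as log2(CPM + 0.5) in all 48 libraries, with 15 species and organ groups along the horizontal axis; points are libraries and black bars are group means of CPM. Brca1 stands highest in macaque cerebellum at a mean of 54.8 CPM, and Xrcc5, Xrcc6 and Prkdc stand higher in baboon and macaque than in most other species.

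Group means of CPM spread widely for every gene. Atm was highest in macaque cerebellum, at 126 CPM ± 11.5 (SD, n = 6), and next in macaque kidney, at 119 ± 25.5 (n = 5), and these libraries overlapped. It was lowest in white-footed mouse liver, at 1.09 CPM (exact 95% Poisson interval 0.439 to 2.25). Brca1 had 54.8 CPM ± 5.25 in macaque cerebellum (n = 6), and the next groups were baboon kidney at 8.92 ± 0.633 (n = 6) and macaque kidney at 7.28 ± 0.648 (n = 5). All 6 cerebella lay above every other library for Brca1. The share of all genes for which groups stand apart was not counted for these levels. Brca2 stayed below 1 CPM on average in 10 of the 15 groups, and its only means above 10 CPM were 15.2 in white-footed mouse brain (11.2 to 20.1) and 12.5 in tube-nosed bat liver (9.39 to 16.3). These intervals take 2 deposited counts as 1 read pair and cover counting error only. In the single bear kidney Brca2 had no count, for which the same kind of interval allows up to 0.507 CPM.

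Trp53 was highest in sugar glider liver, at 48.9 CPM ± 0.167 (n = 2), and lowest in macaque cerebellum, at 4.85 ± 1.03 (n = 6). Parp1 was highest in beaver brain at 403 CPM ± 9.88 (n = 2), followed by baboon brain at 224 ± 26.8 (n = 6), and the 2 groups did not overlap. Sirt6 had its highest mean in sugar glider liver, at 25.4 CPM ± 0.713 (n = 2), just above macaque cerebellum at 24.2 ± 2.21 (n = 6), and these overlapped. Ercc1 was highest in white-footed mouse brain at 164 CPM (151 to 179) and lowest in beaver liver at 6.29 ± 2.24 (n = 2). Xrcc5 was highest in baboon kidney at 317 CPM ± 6.88 (n = 6), Xrcc6 in macaque cerebellum at 468 ± 22.4 (n = 6), and Prkdc in macaque cerebellum at 329 ± 31.3 (n = 6), and the libraries of each of these 3 groups overlapped those of the next.

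The order of the groups depended on the scaling. With trimmed-mean (TMM) factors over all 48 libraries in place of CPM, 14 of the 150 group means moved by less than their SD. The other 136 moved by more or came from a single library, where no SD could be compared. Xrcc5 then averaged 402 in baboon liver and 208 in baboon kidney, and Xrcc6 averaged 376 in macaque liver and 297 in macaque cerebellum. Trp53 had 65.0 in white-footed mouse liver, above 57.4 in sugar glider liver, and Sirt6 had 34.6 in white-footed mouse brain, above 29.8 in sugar glider liver. Atm was highest in macaque kidney and Prkdc in baboon brain, while Brca1, Brca2, Ercc1 and Parp1 had the same highest group as by CPM.

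Among the members, Xrcc6 and Prkdc had the most similar profiles over the 15 groups. The Pearson r of their group means of log2(CPM + 1) was 0.94, and among 13573 other genes with a mean of at least 1 CPM none was closer to Xrcc6 than Prkdc. For the other 9 members a gene outside the list was closer than any member, with r = 0.97 for Prkdc, 0.98 for Atm and 0.92 for Xrcc5. Xrcc5 was also nearest to Xrcc6 within the list, with r = 0.88, and Atm was nearest to Prkdc, with r = 0.89. Trp53 had no close neighbour in the list, its highest r being 0.20, with Brca2, and its lowest -0.55, with Xrcc6. The points share libraries and the difference between primates and the other species, so these r values describe the profiles and carry no test.

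Organs were then compared within a species, where a fixed bias in assigning reads of that species to a mouse gene ID would be shared by both sides. By CPM, most genes were lower in liver than in the other organs. The tests therefore used trimmed-mean (TMM) factors, which averaged 1.40 in baboon brain, 1.38 in kidney and 0.517 in liver, and 1.49 in macaque cerebellum, 1.29 in kidney and 0.545 in liver. Levels divided by these factors are called scaled CPM, and are comparable only within 1 fit. With total counts alone, the median over all genes tested, as a log2 fold change, was 1.48 for baboon brain against liver and 1.47 for kidney against liver, in place of 0.05 and 0.06. In macaque it was 1.51 for cerebellum against liver and 1.26 for kidney against liver, in place of 0.06 and 0.02. Directions against liver are therefore given relative to the bulk of genes, and members called under either scaling whose direction turned with total counts are named. Fewer cells of a type and less RNA per cell cannot be told apart in these bulk libraries, and the organ labels were not checked against marker genes, because the sources used here pair no other row with a gene name.

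In baboon brain against liver, 3 members were higher, Prkdc, Sirt6 and Parp1, and 5 were lower, Trp53, Atm, Brca2, Xrcc5 and Ercc1. The call was an edgeR adjusted p under 0.05. The 8 calls among 10 members stand beside 82.4% of 13890 genes called (42.4% higher and 40% lower), so the number of calls is not particular to these genes. Where libraries of different organs are said below not to overlap, the share of all genes doing so was not counted. Such separation is therefore not read as particular to a member. The members' median log2 fold change was -0.25, against 0.05 for all genes. Of all genes called, 51.4% were higher in brain, or 81.4% with total counts.

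Trp53, Brca2 and Xrcc5 were the members lowest in brain relative to liver, under both scalings. Trp53 had 2.04 to 6.15 scaled CPM in the 6 baboon brains (median 3.78), against 15.6 to 23.7 in the 6 livers (median 18.8). No brain overlapped a liver, and the log2 fold change was -2.32 ± 0.21 (SE, edgeR adjusted p = 6.76e-09), 4.99-fold lower in brain. Xrcc5 had 122 to 150 scaled CPM in brain (median 132), against 419 to 516 in liver (median 458), with a log2 change of -1.80 ± 0.08 (edgeR adjusted p = 9.19e-14). Its Ku partner Xrcc6 had 278 to 339 scaled CPM in brain (median 295) and 290 to 361 in liver (median 310), and the groups overlapped. The log2 fold change of Xrcc6 was -0.06 ± 0.08 (edgeR adjusted p = 0.525), or 1.39 with total counts. Brca1 was not called either, at 0.30 ± 0.27 (edgeR adjusted p = 0.306), but was higher by 1.73 with total counts.

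The members higher in baboon brain than in liver were so by smaller factors. Sirt6 had 10.5 to 18.5 scaled CPM in brain (median 14.1), against 6.59 to 9.13 in liver (median 8.33), with a log2 change of 0.80 ± 0.14 (edgeR adjusted p = 3.52e-05). Parp1 had 138 to 180 in brain (median 159), against 95.6 to 134 in liver (median 113), a log2 change of 0.50 ± 0.10 (edgeR adjusted p = 0.000219). All 6 brains lay above all 6 livers for both genes. Prkdc had 166 to 281 in brain (median 225) and 143 to 173 in liver (median 161), a log2 change of 0.50 ± 0.11 (edgeR adjusted p = 0.000411), with overlapping libraries. Brca2 was lower in brain by a log2 change of -2.28 ± 0.35 (edgeR adjusted p = 8.39e-06), from 4 to 12 counts per brain library and 18 to 34 per liver library, and it had passed the low-count filter in all 20 comparisons. Ercc1 was lower by -1.04 ± 0.14 (edgeR adjusted p = 9.35e-07) and Atm by -0.45 ± 0.11 (edgeR adjusted p = 0.00124), but with total counts these were 0.40 and 0.99, that is, higher in brain.

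Macaque cerebellum against liver also had Trp53 and Xrcc5 lower and Sirt6, Parp1 and Prkdc higher, and here Atm and Brca1 were higher as well. Here 5 members were higher and 4 lower, beside 81.9% of 13927 genes called (42.1% higher and 39.8% lower), and their median log2 fold change was -0.06, against 0.06 for all genes. Of the genes called, 51.4% were higher in cerebellum, or 80.1% with total counts. Brca1 had 33.1 to 40.1 scaled CPM in the 6 cerebella (median 37.8), against 2.19 to 6.61 in the 6 livers (median 3.81), a log2 change of 3.24 ± 0.20 (edgeR adjusted p = 4.02e-11), 9.47-fold higher in cerebellum. Atm had 74.2 to 99.9 in cerebellum (median 83.3), against 38.7 to 59.6 in liver (median 48.8), a log2 change of 0.79 ± 0.12 (edgeR adjusted p = 7.67e-06). Neither gene's cerebella overlapped its livers. Whether these genes differ between cerebellum and the rest of the brain cannot be told apart from species here, since baboon gave brain and macaque gave cerebellum.

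The other macaque calls against liver were as follows. Trp53 had 2.49 to 3.91 scaled CPM in cerebellum (median 3.41), against 12.6 to 24.2 in liver (median 18), a log2 change of -2.45 ± 0.19 (edgeR adjusted p = 1.32e-09). Xrcc5 had 112 to 136 in cerebellum (median 122), against 345 to 466 in liver (median 443), a log2 change of -1.77 ± 0.10 (edgeR adjusted p = 7.49e-12). No cerebellum overlapped a liver for either gene. Sirt6 was higher by a log2 change of 0.94 ± 0.11 (edgeR adjusted p = 3.92e-07) and Prkdc by 0.38 ± 0.10 (edgeR adjusted p = 0.00227). Parp1 was higher by 0.32 ± 0.13 (edgeR adjusted p = 0.0312), a call lost without cerebellum replicate 5 or without liver replicate 3, 4, 5 or 6 (largest edgeR adjusted p = 0.0725). Xrcc6 was lower by -0.48 ± 0.09 and Ercc1 by -0.45 ± 0.08 (edgeR adjusted p = 8.48e-05 and 0.000100), but with total counts both turned, to 0.97 and 1.01. Brca2 was not called, at -1.36 ± 0.66 (edgeR adjusted p = 0.0646), or 0.06 with total counts, and was called at -1.29 with the replicate number as a block (edgeR adjusted p = 0.0464).

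Total counts turned the sign of 5 members in baboon and 6 in macaque for kidney against liver, and of 3 in each for brain or cerebellum against liver. In baboon 1 member was higher, Brca1, and 6 were lower, beside 66.5% of 13890 genes called (35.3% higher and 31.2% lower), with a members' median of -0.48 against 0.06 for all genes. In macaque 2 were higher, Atm and Brca1, and 5 were lower, beside 63.1% of 13927 genes called (32.7% higher and 30.4% lower), with a median of -0.48 against 0.02. Of the genes called, 53.1% were higher in kidney in baboon and 51.9% in macaque, or 90.8% and 89.9% with total counts. Upper-quartile factors moved the median of all genes by 0.12 in each species, and with them the baboon values of Atm (0.35) and Prkdc (0.30) were called and that of Xrcc6 (-0.15, edgeR adjusted p = 0.0936) was not.

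Brca1, required for homologous recombination, was called higher in kidney than in liver in both primates. In baboon it had 5.42 to 7.01 scaled CPM in kidney (median 6.76), against 1.14 to 4.07 in liver (median 2.96), and no kidney overlapped a liver. The log2 fold change was 1.28 ± 0.27 (edgeR adjusted p = 0.000418). In macaque it had 5.55, 6.56, 5.62, 4.73 and 5.85 scaled CPM in kidney, against 2.19 to 6.61 in liver (median 3.81), and the highest liver lay above every kidney. The log2 fold change there was 0.54 ± 0.20 (edgeR adjusted p = 0.0247), a call lost without macaque liver replicate 1 or 4 (largest edgeR adjusted p = 0.0562).

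Atm had 85.6, 78.3, 76.7, 114 and 103 scaled CPM in macaque kidney, against 38.7 to 59.6 in liver (median 48.8), a log2 change of 0.90 ± 0.12 (edgeR adjusted p = 5.65e-06). In baboon it had 52.8 to 92.9 in kidney (median 65.9) and 54.1 to 66.3 in liver (median 55.4), a log2 change of 0.24 ± 0.11 that was not called (edgeR adjusted p = 0.0669). The baboon value was called with total counts, at 1.65 (edgeR adjusted p = 4.44e-11), and with all 48 libraries in 1 fit, at 0.30 (edgeR adjusted p = 0.0288). It was also called without baboon liver replicate 1 or baboon kidney replicate 4. The difference between the species in this contrast was itself tested on a fit of both, as a baboon-minus-macaque term of -0.64 ± 0.19 (edgeR adjusted p = 0.0283). In that test 1 member was called, Atm, beside 10% of 13600 genes (5.21% higher and 4.8% lower), and 52.0% of the genes called were higher, or 72.5% with total counts. The Atm term was no longer called without baboon kidney replicate 4 or macaque kidney replicate 5 or 6 (largest edgeR adjusted p = 0.0679), nor with total counts, at -0.49 (edgeR adjusted p = 0.0950).

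The members called lower in kidney than in liver were Trp53, Xrcc5, Xrcc6, Ercc1 and Parp1 in both primates, and Brca2 in baboon. Trp53 had a log2 change of -1.03 ± 0.20 in baboon and -0.90 ± 0.19 in macaque, and Xrcc5 had -1.02 ± 0.07 and -0.85 ± 0.10. Parp1 had -1.10 ± 0.10 in baboon and -0.73 ± 0.14 in macaque, Ercc1 -0.70 ± 0.13 and -0.33 ± 0.09, and Xrcc6 -0.27 ± 0.08 and -0.64 ± 0.10. The largest edgeR adjusted p among these 10 values was 0.00657. With total counts all 10 turned positive, between 0.31 and 1.15, so these genes were lower in kidney relative to the bulk of genes and not as a share of all reads. With all 48 libraries in 1 fit, Ercc1 in macaque was no longer called (edgeR adjusted p = 0.0761). Brca2 in baboon had -1.92 ± 0.34 (edgeR adjusted p = 7.77e-05), or -0.51 with total counts, where it was not called (edgeR adjusted p = 0.173). In macaque Brca2 was not called, at -1.48 ± 0.70 (edgeR adjusted p = 0.0749), and was called at -1.68 with the replicate number as a block (edgeR adjusted p = 0.023). Sirt6 and Prkdc were called in neither species, but with total counts in both, Sirt6 at 1.52 in baboon and 1.26 in macaque and Prkdc at 1.60 and 1.15.

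Brain tissue against kidney needed little scaling correction, since the median of all genes moved by 0.02 in baboon and 0.21 in macaque with total counts. In baboon 4 members were higher in brain, Xrcc6, Prkdc, Sirt6 and Parp1, and 5 were lower, Trp53, Atm, Brca1, Xrcc5 and Ercc1, beside 77.3% of 13890 genes called (38.2% higher and 39.1% lower). In macaque 4 were higher in cerebellum, Brca1, Prkdc, Sirt6 and Parp1, and 2 were lower, Trp53 and Xrcc5, beside 75.8% of 13927 genes called (37.9% higher and 37.8% lower). The members' median was -0.35 in baboon, against -0.02 for all genes, and 0.14 in macaque, against 0.02.

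Parp1 had 138 to 180 scaled CPM in baboon brain (median 159), against 46.0 to 60.6 in kidney (median 52.4), a log2 change of 1.60 ± 0.11 (edgeR adjusted p = 8.67e-11), 3.03-fold higher. In macaque it had 117 to 143 in cerebellum (median 121), against 55.3, 61.7, 71.8, 60.1 and 50.4 in kidney, a log2 change of 1.05 ± 0.14 (edgeR adjusted p = 2.07e-06). Brain tissue did not overlap kidney for this gene in either species. Trp53 went the other way, with log2 fold changes of -1.29 ± 0.21 in baboon (edgeR adjusted p = 1.54e-05) and -1.55 ± 0.19 in macaque (edgeR adjusted p = 9.81e-07). Macaque kidney had 9.09, 11.5, 7.03, 10.1 and 9.74 scaled CPM of Trp53, above every cerebellum.

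Brca1 had opposite calls in the 2 species. It was lower in baboon brain than in kidney, at -0.98 ± 0.27 (edgeR adjusted p = 0.00259), and higher in macaque cerebellum than in kidney, at 2.70 ± 0.20 (edgeR adjusted p = 1.13e-09). The difference between these contrasts was not tested. Sirt6 was higher in brain tissue by 0.69 ± 0.14 in baboon and 0.92 ± 0.12 in macaque (edgeR adjusted p = 0.000165 and 1.27e-06), and Prkdc by 0.32 ± 0.11 and 0.47 ± 0.11 (edgeR adjusted p = 0.0136 and 0.000724). In baboon, Ercc1 was lower by -0.34 ± 0.13 (edgeR adjusted p = 0.0283), a call lost without kidney replicate 1 or brain replicate 3, with RLE factors, total counts or DESeq2, and with all 48 libraries in 1 fit. Xrcc6 in baboon was higher by 0.21 ± 0.08 (edgeR adjusted p = 0.0218), a call lost without brain or kidney replicate 5 and with upper-quartile factors, which also ended the Prkdc call (edgeR adjusted p = 0.0532). In macaque Xrcc6 was not called, at 0.16 ± 0.10 (edgeR adjusted p = 0.136), and was called with DESeq2 at 0.20 (adjusted p = 0.0307).

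**Figure D2:**
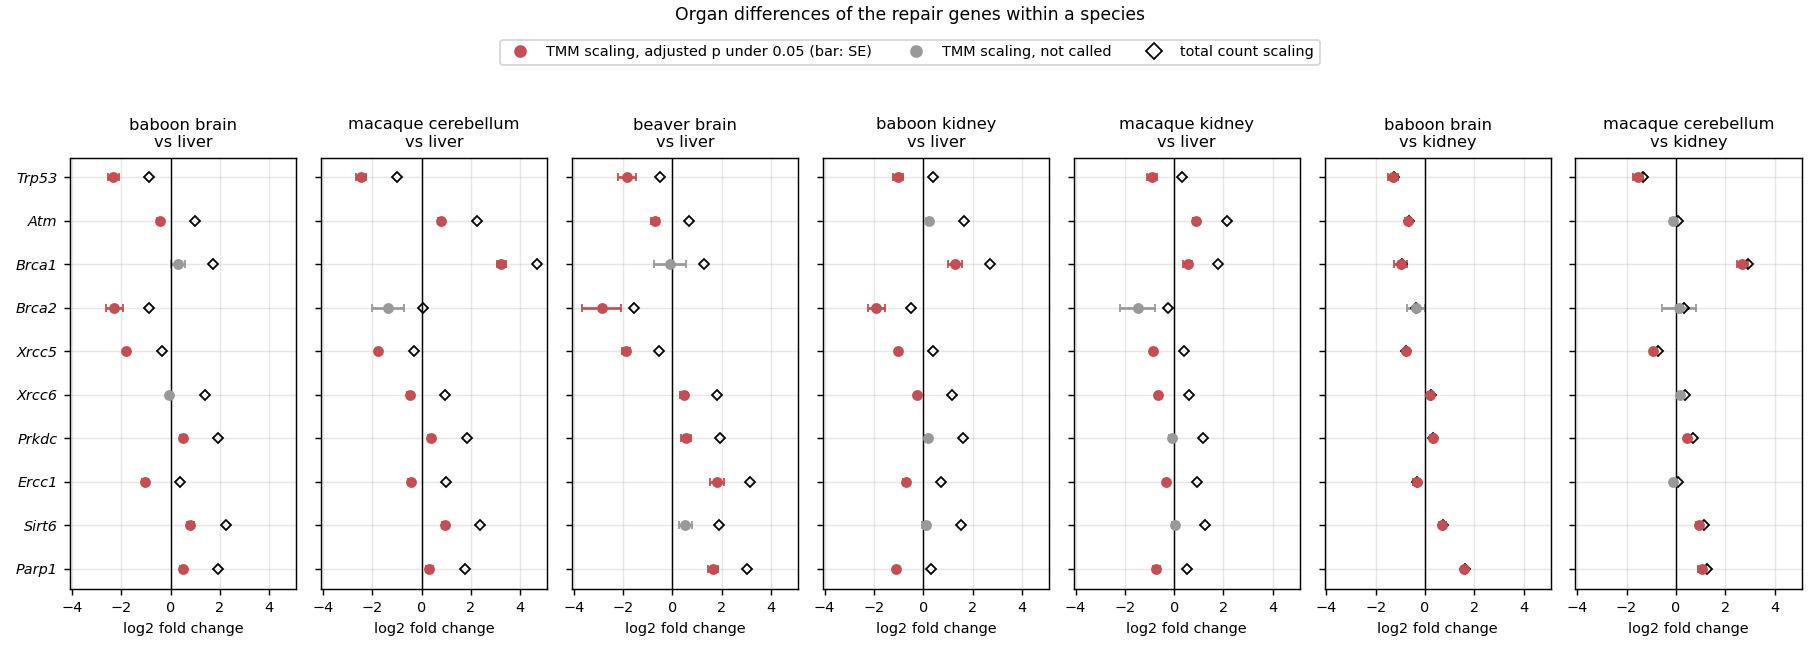
Log2 fold changes of the 10 genes (rows) in 7 organ comparisons within a species; filled points are the TMM-scaled fit with SE bars, red where the adjusted p is under 0.05, and open diamonds are the fit with total counts. The diamonds lie to the right wherever liver is compared, and Trp53 and Xrcc5 stay left of 0 in all 5 comparisons of brain or cerebellum under both scalings.

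The Ku genes could be compared without any scaling, as the ratio of Xrcc6 to Xrcc5 counts within a library. The ratio was chosen after the organ values had been seen, so its p-values do not allow for the choice of this gene pair. Because transcript lengths differ, only its change between groups is read. In baboon the ratio was 2.13 to 2.52 in brain (median 2.23), 1.02 to 1.21 in kidney (median 1.14) and 0.608 to 0.817 in liver (median 0.655). No group overlapped another. The mean log2 ratio was 1.75 higher in brain than in liver, a 3.35-fold difference, and 0.74 higher in kidney than in liver (two-sided exact permutation p = 0.00216 each, the smallest that 6 against 6 libraries allow). Brain stood 1.00 above kidney with the same p. Adjusted over the 6 ratio tests made in the 2 primates, p was 0.00260. Same-numbered baboon libraries were not tested as pairs for this ratio, so its p-values in baboon are unpaired.

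In macaque the ratio was 2.46 to 2.67 in cerebellum (median 2.55), 1.31, 1.33, 1.21, 1.15 and 1.12 in kidney, and 0.822 to 1.46 in liver (median 1.05). Cerebellum stood apart from both other organs, and kidney overlapped liver. The mean log2 ratio was 1.29 higher in cerebellum than in liver and 1.07 higher than in kidney (exact permutation p = 0.00216 each, adjusted p = 0.00260). Kidney stood 0.22 above liver, which was not called (exact permutation p = 0.141, adjusted p = 0.141). Without macaque liver replicate 2, which had the highest ratio, that difference was 0.31 (exact permutation p = 0.00794). The 5 called differences kept their calls without any single library. Taking same-numbered macaque libraries as pairs, cerebellum stood above liver in 6 of 6 pairs (exact sign-flip permutation p = 0.0312) and above kidney in 5 of 5 (exact p = 0.0625), each the smallest p those pairs allow, so the 5 pairs cannot pass 0.05. Kidney stood above liver in 4 of 5 pairs (exact p = 0.188).

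Other species gave too few libraries for a test of the ratio. Beaver had 3.09 and 2.92 in brain, against 0.542 and 0.652 in liver. White-footed mouse had 4.56 in its 1 brain, against 0.820 in its 1 liver, with 36 counts of Xrcc5 in the brain and 211 in the liver. In the 4 species with brain or cerebellum, every such library had a higher ratio than every liver of the same species. Bear kidney, at 1.40, had a lower ratio than bear liver, at 1.81. Livers differed widely among species, from 0.540 and 0.569 in chipmunk to 1.68 and 1.85 in sugar glider and 3.38 in tube-nosed bat. Between species the ratio may include unequal assignment of reads to each gene's mouse ID, which it does not cancel.

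**Figure D3:**
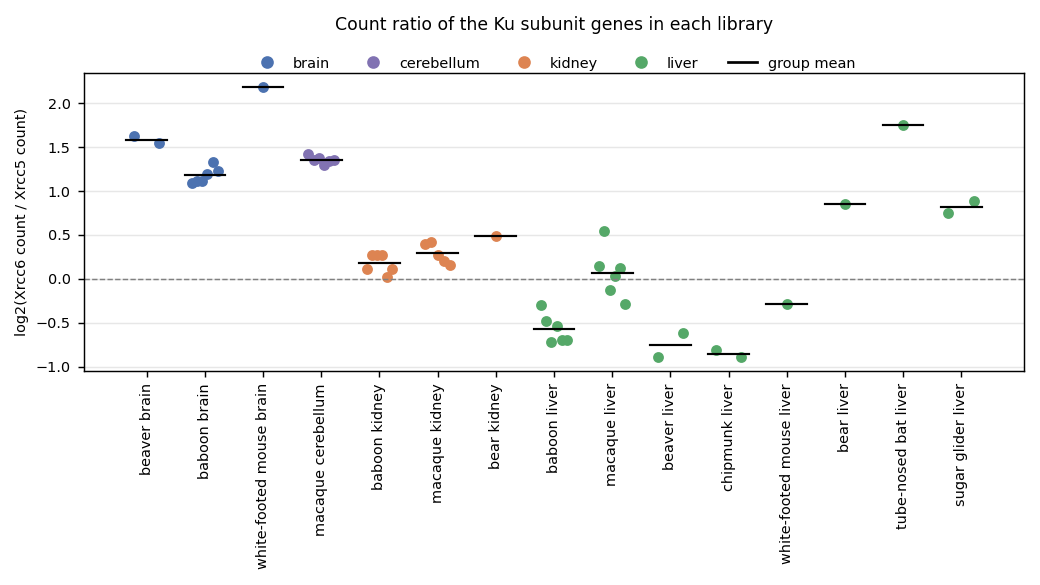
The log2 ratio of Xrcc6 to Xrcc5 counts (vertical axis) in each of 48 libraries by species and organ, with black bars at group means. Brain and cerebellum libraries lie above all kidneys, and baboon liver lies below baboon kidney.

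Beaver brain against beaver liver was fitted together with baboon, so that its 2 libraries per organ shared the spread of 16 libraries. In beaver 4 members were higher in brain, Xrcc6, Prkdc, Ercc1 and Parp1, and 4 were lower, Trp53, Atm, Brca2 and Xrcc5, beside 62.9% of 14504 genes called (34.4% higher and 28.5% lower). The members' median was 0.18, against 0.08 for all genes. Of the genes called, 54.7% were higher in brain, or 85.5% with total counts, which moved the median of all genes to 1.44.

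Parp1 had 232 and 236 scaled CPM in beaver brain, against 67.9 and 80.7 in liver, a log2 change of 1.65 ± 0.19 (edgeR adjusted p = 1.80e-06). Ercc1 had 29.8 and 35.2 in brain, against 7.10 and 11.6 in liver, a log2 change of 1.80 ± 0.28 (edgeR adjusted p = 3.90e-05). Xrcc5 had 12.2 and 12.8 in brain, against 42.3 and 50.6 in liver, at -1.89 ± 0.15 (edgeR adjusted p = 2.77e-08). Trp53 had 7.10 and 8.26 in brain, against 24.8 and 30.4 in liver, at -1.84 ± 0.35 (edgeR adjusted p = 0.000263), or -0.49 with total counts, where it was not called (edgeR adjusted p = 0.255). The pairs of libraries did not overlap for any of these 4 genes. With 2 libraries on each side such separation is easily reached, and its share over all genes was not counted.

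Other beaver calls rested on less. Atm was lower in brain by -0.70 ± 0.17 (edgeR adjusted p = 0.00191), but 0.66 with total counts. Prkdc was higher by 0.56 ± 0.21 (edgeR adjusted p = 0.0325), a call lost without brain replicate 1 or liver replicate 2, and Xrcc6 by 0.45 ± 0.14 (edgeR adjusted p = 0.0126), a call lost without brain replicate 1 or liver replicate 1. Brca2 was lower by -2.87 ± 0.79 (edgeR adjusted p = 0.00497) on 18 and 4 counts in brain against 78 and 12 in liver. Without beaver liver replicate 1 that value was -0.93 (edgeR adjusted p = 0.332). The Brca2 call was also lost without beaver brain replicate 2 (edgeR adjusted p = 0.0573) and with total counts (edgeR adjusted p = 0.0895). Leaving out a beaver library leaves 1 for that organ, which is then assumed to vary like the other groups.

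The organ contrast itself differed between beaver and baboon for 3 members, beside 39.6% of 14504 genes called (21% higher and 18.5% lower). For Ercc1 the beaver-minus-baboon difference in brain against liver was 2.81 ± 0.32 (edgeR adjusted p = 8.68e-06): beaver had more in brain, while baboon, in the same fit, had 17.7 to 29.9 scaled CPM in brain (median 21.9) and 31.4 to 52.6 in liver (median 49.1). The Parp1 difference was 1.13 ± 0.22 (edgeR adjusted p = 0.000750). Xrcc6 had 0.48 ± 0.17 (edgeR adjusted p = 0.0315), a call lost without any 1 of the 4 beaver libraries, without baboon brain replicate 1, 3 or 4, with RLE factors and with total counts (largest edgeR adjusted p = 0.155). Such a difference of differences cancels a constant bias in how the reads of a species were assigned to a gene.

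A direct comparison of species does not cancel it. The labels and notes do not say how the reads of each species reached mouse IDs, so a value between species may include unequal gene models. In beaver brain against baboon brain 2 members were higher, Trp53 and Parp1, and 5 lower, Atm, Brca1, Xrcc5, Xrcc6 and Prkdc, beside 46.4% of 14504 genes called (22.5% higher and 23.8% lower). The 3 end-joining genes had the most negative values, with -3.23 ± 0.15 for Xrcc5, -2.82 ± 0.14 for Xrcc6 and -2.44 ± 0.20 for Prkdc (largest edgeR adjusted p = 2.31e-07). Xrcc5 had 12.2 and 12.8 scaled CPM in beaver brain, against 108 to 132 in baboon brain (median 116). Parp1 was higher by 0.73 ± 0.15 (edgeR adjusted p = 0.000825) and Trp53 by 1.16 ± 0.27 (edgeR adjusted p = 0.00262), while Brca1 was lower by -2.34 ± 0.55 (edgeR adjusted p = 0.00271). The Brca1 value rested on 12 and 18 counts in the beaver brains, against 40 to 110 per baboon brain. Atm, at -0.38 ± 0.14 (edgeR adjusted p = 0.0349), was no longer called with total counts or with all 48 libraries in 1 fit, nor without baboon brain replicate 3, 4 or 6 or either beaver brain (largest edgeR adjusted p = 0.161).

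Baboon was then compared with macaque. In liver 1 member was higher in baboon, Ercc1, and 1 lower, Xrcc6, beside 32.4% of 13600 genes called (15.7% higher and 16.7% lower), of which 48.4% were higher in baboon, or 34.7% with total counts. Ercc1 had 31.1 to 50.0 scaled CPM in baboon liver (median 47.5), against 27.1 to 34.0 in macaque liver (median 29.7), a log2 change of 0.58 ± 0.11 (edgeR adjusted p = 0.000449). Xrcc6 had 244 to 299 in baboon liver (median 257), against 302 to 433 in macaque liver (median 348), a log2 change of -0.45 ± 0.09 (edgeR adjusted p = 0.000705). All 6 baboon livers lay below all 6 macaque livers for Xrcc6. How many of all genes were separated in this way was not counted. Parp1 was not called, at 0.22 ± 0.14 (edgeR adjusted p = 0.230), but was called without macaque liver replicate 2, at 0.39 (edgeR adjusted p = 0.00971). In kidney Atm alone was called, at -0.38 ± 0.13 (edgeR adjusted p = 0.0454), beside 21.4% of 13600 genes (11% higher and 10.4% lower), and the call was lost with total counts and without baboon kidney replicate 2, 3, 4, 5 or 6 or macaque kidney replicate 1, 5 or 6 (largest edgeR adjusted p = 0.157).

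The 21 livers allowed each of the 8 species to be set against the mean of the other 7, every species weighing the same. These 8 comparisons share their libraries, so their values are given side by side and are not independent. Species with 1 liver, namely white-footed mouse, bear and tube-nosed bat, are assumed to vary like the others.

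Xrcc5 and Xrcc6 were far higher in the primate livers. Prkdc had 79.9 scaled CPM in the lowest primate liver and 79.1 in tube-nosed bat liver, an order that turned by plain CPM, where no primate liver exceeded 114 and the bat had 126. In baboon 7 members were higher and 1 lower, beside 58.2% of 14371 genes called (39.8% higher and 18.4% lower), and in macaque 5 were higher and 1 lower, beside 54.3% (37.9% higher and 16.3% lower). The median of all genes was itself 0.32 in baboon and 0.30 in macaque. Xrcc5 had 237 to 287 scaled CPM in baboon liver (median 253) and 186 to 247 in macaque liver (median 239). In the other 6 species it had 27.6 and 32.8 in beaver, 28.2 and 22.1 in chipmunk, 33.9 in white-footed mouse, 23.4 in bear, 13.2 in tube-nosed bat and 26.0 and 26.4 in sugar glider. The log2 fold change was 2.94 ± 0.10 in baboon and 2.72 ± 0.10 in macaque (edgeR adjusted p = 6.13e-13 and 2.13e-12). All 12 primate livers lay above all 9 other livers.

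Xrcc6 showed the same separation, with 162 to 197 scaled CPM in baboon (median 172) and 202 to 281 in macaque (median 232), against 12 to 48.9 in the other 9 livers. Its log2 fold change was 2.15 ± 0.10 in baboon and 2.66 ± 0.10 in macaque (edgeR adjusted p = 2.28e-11 and 3.23e-12). Prkdc had 81.0 to 95.1 in baboon (median 89.0) and 79.9 to 113 in macaque (median 87.4), with log2 fold changes of 1.67 ± 0.10 and 1.74 ± 0.10 (edgeR adjusted p = 2.79e-10 and 2.07e-10). The tube-nosed bat liver came next, at 79.1 scaled CPM of Prkdc, and the other 8 livers had 8.67 to 30.2. Primate livers all lay above the others in 2.76% of 14371 genes, and in 3 of the 10 members. By CPM, where the bat liver had 126 of Prkdc, this held for 2.39% of genes and for Xrcc5 and Xrcc6. Human cells are known to hold much more DNA-PK than rodent cells, which is background and not a result of these libraries. The baboon Brca1 call, at 0.83 ± 0.32 (edgeR adjusted p = 0.0328), was lost with total counts and without baboon liver replicate 1, 4, 5 or 6 or chipmunk liver replicate 1.

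Trp53 was the member with the opposite pattern. It had 8.69 to 13.4 scaled CPM in baboon liver (median 10.4) and 6.81 to 13.1 in macaque liver (median 9.64). The other livers had 16.2 and 19.7 in beaver, 28.5 and 34.4 in chipmunk, 42.5 in white-footed mouse, 18.8 in bear, 24.8 in tube-nosed bat and 36.3 and 37.5 in sugar glider. All 12 primate livers lay below all 9 others, which held for 1.39% of 14371 genes and, by CPM, primate livers had up to 13.6 and the others at least 14.2. The log2 fold change was -1.11 ± 0.15 in baboon and -1.32 ± 0.15 in macaque (edgeR adjusted p = 5.64e-06 and 1.11e-06). In the RefSeq annotation of the baboon assembly Panubis1.0 ERCC1 overlaps CD3EAP, ATM overlaps C12H11orf65, and BRCA2 overlaps N4BP2L1 and a pseudogene. The strand setting of the counting is not stated either, so reads of such neighbours may be counted with a member they overlap.

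**Figure D4:**
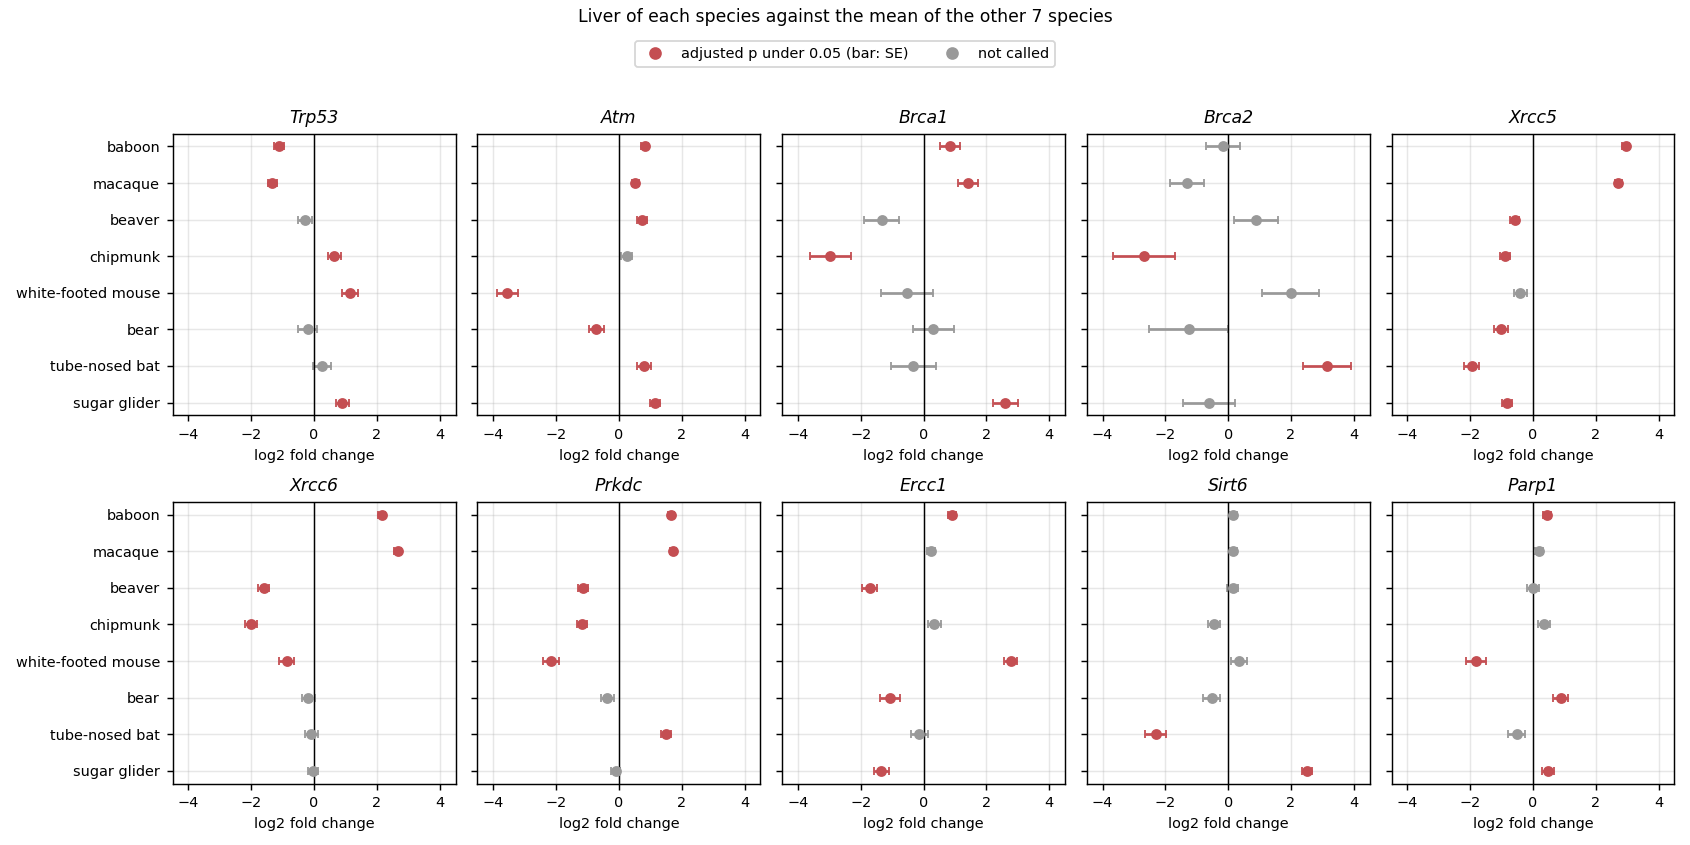
Log2 fold change of each gene (panels) in the liver of each species against the mean of the other 7 species, with SE bars; red points have an adjusted p under 0.05. Xrcc5, Xrcc6 and Prkdc stand to the right in baboon and macaque, and Sirt6 stands to the right in sugar glider at 2.51 and to the left in tube-nosed bat at -2.31.

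Xrcc6 and Prkdc were low in beaver and chipmunk liver against a mean of other species that includes both primates. Xrcc5 was not particular to the rodents, whose livers had 22.1 to 33.9 scaled CPM, against 13.2 to 26.4 in bear, tube-nosed bat and sugar glider. In beaver 1 member was higher and 4 lower, beside 44.4% of 14371 genes called (29.5% higher and 14.9% lower), and in chipmunk 1 was higher and 5 lower, beside 42.1% (28% higher and 14.2% lower). Xrcc6 had -1.60 ± 0.17 in beaver and -2.01 ± 0.18 in chipmunk, and Prkdc had -1.13 ± 0.16 and -1.16 ± 0.16 (largest edgeR adjusted p = 2.02e-05). Beaver also had little Ercc1, at 4.63 and 7.52 scaled CPM and a log2 change of -1.72 ± 0.24 (edgeR adjusted p = 1.78e-05). Chipmunk had little Brca1, at 0.110 and 0.168 scaled CPM from 2 and 4 counts, with -2.97 ± 0.65 (edgeR adjusted p = 0.00129). The chipmunk Brca2 call, at -2.68 ± 0.98 (edgeR adjusted p = 0.0349), rested on 10 counts in replicate 2 and none in replicate 1. It was -1.78 without replicate 1 (edgeR adjusted p = 0.248), and without replicate 2, where no count of the gene was left, the fitted value of -7.92 depends on the prior count. Of the other calls, Atm in beaver (0.73) was lost without beaver replicate 1, Xrcc5 in beaver (-0.59) without beaver replicate 2 and Trp53 in chipmunk (0.64) without chipmunk replicate 2. Of the genes called in chipmunk, 66.3% were higher, or 79.8% with total counts.

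White-footed mouse liver combined the highest Ercc1 with the lowest Atm. There 2 members were higher and 4 lower, beside 53.9% of 14371 genes called (26.4% higher and 27.5% lower), 49.0% of them higher, or 23.9% with total counts. Its median of all genes was -0.65, or -1.72 with total counts and -0.37 with RLE factors. Ercc1 had 92.5 scaled CPM, against 4.63 to 33.7 in the other 20 livers, and a log2 change of 2.77 ± 0.22 (edgeR adjusted p = 9.36e-09). Atm had 2.25 scaled CPM, from 14 counts, and -3.54 ± 0.34 (edgeR adjusted p = 1.16e-07). Parp1 was also low, at 15.9 scaled CPM and -1.82 ± 0.32 (edgeR adjusted p = 9.56e-05), and Prkdc had -2.15 ± 0.25 (edgeR adjusted p = 1.01e-06). Trp53 was called higher at 1.14 ± 0.26 (edgeR adjusted p = 0.00132), but -0.024 with total counts.

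In tube-nosed bat liver 3 members were higher, Atm, Brca2 and Prkdc, and 2 lower, Xrcc5 and Sirt6, beside 43.4% of 14371 genes called (26.1% higher and 17.3% lower), 60.1% of them higher, or 85.2% with total counts. Prkdc had a log2 value of 1.5 ± 0.17 and Xrcc5 had -1.95 ± 0.24 (edgeR adjusted p = 1.99e-06 and 4.61e-06), so Prkdc lay above and Xrcc5 below the mean of the other 7 species. By scaled CPM, though not by plain CPM, the bat's Prkdc was below that of all 12 primate livers. Brca2, required for homologous recombination, had 7.86 scaled CPM from 108 counts and a log2 change of 3.16 ± 0.76 (edgeR adjusted p = 0.00275). Sirt6 had 1.02 scaled CPM from 14 counts and -2.31 ± 0.33 (edgeR adjusted p = 2.07e-05).

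Sugar glider, the marsupial of the set, had 5 members higher in liver and 2 lower, beside 50.8% of 14371 genes called (28.7% higher and 22.1% lower), 56.5% of them higher, or 73.4% with total counts. Sirt6 had 18.5 and 19.8 scaled CPM, against 1.02 to 5.14 in the other 19 livers, a log2 change of 2.51 ± 0.16 (edgeR adjusted p = 8.42e-10). Brca1 had 4.20 and 4.43 scaled CPM, against 0.110 to 3.56 in the other livers, with 2.60 ± 0.40 (edgeR adjusted p = 3.39e-05). Atm had 1.14 ± 0.16 and Trp53 0.90 ± 0.20 (edgeR adjusted p = 9.18e-06 and 0.000949). Ercc1 was lower at -1.35 ± 0.23 and Xrcc5 at -0.82 ± 0.16 (edgeR adjusted p = 0.000103 and 0.000248), and the Xrcc5 value was -0.33 and not called with total counts. The Parp1 call, at 0.47 ± 0.19 (edgeR adjusted p = 0.0421), was lost with RLE or upper-quartile factors, with DESeq2, without the low-count filter, without either sugar glider liver, and without baboon liver replicate 1 or 4, beaver replicate 1, chipmunk replicate 1 or 2, or macaque replicate 5.

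Bear liver had the fewest members called among the 8 species and also the lowest share of all genes called. There 1 member was higher, Parp1, at 82.2 scaled CPM and 0.89 ± 0.24 (edgeR adjusted p = 0.00928), and 3 were lower, Atm, Xrcc5 and Ercc1, beside 30.2% of 14371 genes called (20.4% higher and 9.74% lower), 67.7% of them higher, or 42.5% with total counts. Xrcc5 had -1.01 ± 0.22, Ercc1 -1.06 ± 0.32 and Atm -0.71 ± 0.25 (largest edgeR adjusted p = 0.0387). The Atm call was lost without beaver liver replicate 1, chipmunk liver replicate 2 or macaque liver replicate 5 and with upper-quartile factors, and the Parp1 call was lost with total counts, at 0.45 (edgeR adjusted p = 0.256).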

How the data were processed

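RNA of frozen organs was sequenced, per the labels' protocols. The authors deposited raw read counts per mouse Ensembl gene ID, without normalization. STAR and featureCounts are named in the submitters' processing notes; no source used here gives their versions, the genome builds, the annotation, the strand setting or how reads of 8 species were matched to mouse IDs. Counts from 1 to 20 were even in 94.3% to 99.4% of cases per library, so 2 counts were taken as 1 read pair. Each of the 48 count columns carried the name of 1 sample. The files hold 6326129 to 26801829 counts per library. Member names come with the member list; 0 of 16816 IDs matched the reference table, so the pathway and marker lists were not analysed here, the most similar genes outside the list are not named, and no sequence is printed.

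Differences were tested on counts with edgeR 4.0.16 in R 4.3.3 (TMM factors, filterByExpr, two-sided quasi-likelihood F test) in 5 fits, with Benjamini-Hochberg adjustment over all genes tested and a call at 0.05. SEs come from the F statistic. The procedure was tested on simulated data with equal numbers of genes raised and lowered, which cannot show how it handles the scaling against liver. Alternatives were RLE, upper-quartile and total-count scaling, no filter, DESeq2 1.42.0, 1 fit of all 48 libraries, the replicate number as a block, and leaving out each library (92 fits). All 10 members are named, by rule. The members, lists and comparisons were chosen with earlier results of these data known.

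Same-numbered libraries were checked for pairing by the correlation of their deviations from the group means. In macaque every pair exceeded 0.1 for kidney with liver (0.19 to 0.23, 5 pairs) and cerebellum with kidney (0.12 to 0.14, 5 pairs). The main fits were nonetheless unpaired there. Pairing entered through the replicate block and, for the Ku ratio, through the sign-flip test. Gene overlaps in the baboon annotation are not reported here for every member.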

Additional observations from a re-analysis of the deposited data

Results flagged for a closer look

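Of 60 gene-by-group sets of 5 or 6 libraries, 5 held a library far from the others; chance flags about 1 in 20. Atm had 122 CPM in baboon kidney replicate 1, against 79.5 to 91.6 in the other 5 kidneys. Brca1 had 3.92 CPM in macaque liver replicate 5, against 1.19 to 2.17. Brca2 had 1.58 CPM, or 26 counts, in macaque cerebellum replicate 6, against 0.217 to 0.490. Parp1 had 219 CPM in macaque cerebellum replicate 5, against 176 to 180, and 82.9 CPM in macaque liver replicate 2, against 43.7 to 56.3.

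Organ contrasts differed between species for 4 member values, by a test of the difference itself. For Atm, kidney against liver differed between baboon and macaque by -0.64 on the log2 scale. For brain against liver between beaver and baboon, the difference was 2.81 for Ercc1, 1.13 for Parp1 and 0.48 for Xrcc6.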

How the results depend on the processing

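Of 115 calls on members, 97 held when any 1 library was left out and 18 did not. The number of genes called stayed within 1.5 times the main value in all 20 comparisons under every alternative run. Total-count scaling turned the sign of 33 member values, 22 of them called under at least 1 of the scalings. Against liver in baboon brain these were Atm (0.99), Xrcc6 (1.39) and Ercc1 (0.40), and in baboon kidney Trp53 (0.39), Xrcc5 (0.40), Xrcc6 (1.15), Ercc1 (0.71) and Parp1 (0.31). Against liver in macaque cerebellum they were Xrcc6 (0.97) and Ercc1 (1.01), and in macaque kidney Trp53 (0.33), Xrcc5 (0.40), Xrcc6 (0.60), Prkdc (1.15), Ercc1 (0.92) and Parp1 (0.50). The others were Atm in beaver brain against liver (0.66), Trp53 (-0.024) and Sirt6 (-0.81) in white-footed mouse liver, Xrcc6 in bat liver (0.70), and Xrcc6 (0.46) and Prkdc (0.40) in sugar glider liver.

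In kidney of baboon against macaque, 1 member was called, and 0 with total counts or in 8 of the 11 fits without 1 library (range 0 to 1). In the kidney-liver interaction, 1 was called, and 2 with total counts, DESeq2, the replicate block or all 48 libraries in 1 fit; without 1 library it was 0 to 2. The cause was not tested.

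Outside the macaque kidney comparisons not every same-numbered pair exceeded 0.1, although macaque cerebellum and liver share the numbers of those kidneys. The main fits were unpaired in every comparison. Same-numbered libraries correlated best in 5 of 6 baboon brains with kidney and with liver, in 6 of 6 baboon kidneys with liver and in 6 of 6 macaque cerebella with liver. There the replicate block left the count of members called within 1.5 times except in the interaction, where it added Ercc1 (-0.36, adjusted p = 0.0339). It added Brca2 in macaque cerebellum against liver (-1.29, adjusted p = 0.0464) and lost Xrcc6 in the beaver interaction (0.48, adjusted p = 0.0679). In the macaque kidney comparisons within the species, where every pair exceeded 0.1, the block changed no call but Brca2 against liver. Counts of 0 to 34 per library limit Brca2 in the primates.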
